A study of Mus musculus with 8 samples.

Results

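The catalytic and regulatory subunits of 2 serine/threonine phosphatases, calcineurin and protein phosphatase 1 (PP1), were followed through the first wave of spermatogenesis in mouse testis. These are 8 of the 23983 genes in the expression table, taken by gene name with no threshold on their values, although earlier results of these data were known. Ppp3ca, Ppp3cb and Ppp3cc encode the catalytic subunit of calcineurin (calcineurin A), Ppp3r1 and Ppp3r2 its regulatory subunit (calcineurin B), and Ppp1ca, Ppp1cb and Ppp1cc the catalytic subunit of PP1. Ppp3cc, Ppp3r2 and Ppp1cc are the 3 isoforms known from testis and sperm, and the other 5 are used in tissues generally. Of the 3 families, each had a different history. Calcineurin B changed from almost only Ppp3r1 at d12 to 93.9% Ppp3r2 in the adult. In calcineurin A, Ppp3cc and the general isoform Ppp3ca were both higher in the adult. In PP1, the share of Ppp1cc went from 31.6% to 69.9% and that of Ppp1ca from 33.0% to 6.36%.

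RNA-seq was done on pieces of testis from C57BL/6J mice aged d12, d16 or d24 (days after birth) and from adult mice, with no transgene, deletion or treatment named in the labels. The labels give no age for the adult. There is 1 library per stage, so no difference between stages could be tested against the spread between animals, and no p-values are given. H3K27Ac ChIP-seq, in 4 further samples, is not analysed here.

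Calcineurin is a phosphatase switched on by calcium. Its catalytic subunit binds calcium-loaded calmodulin and works only together with the calcium-binding B subunit. In sperm, the pair of Ppp3cc and Ppp3r2 is known to be needed for a flexible midpiece and for male fertility. PP1 owes its targets to a large set of regulatory subunits. The gene Ppp1cc yields a widely used splice form and one that predominates in testis and sperm, and its loss makes male mice sterile. At d12 the testis holds spermatogonia and early meiotic cells. Pachytene spermatocytes, round spermatids and elongating spermatids are added in turn.

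Values are FPKM (fragments per kilobase of transcript per 1000000 fragments) as deposited. They are levels per transcript length and can be compared between genes. Parentheses give 95% intervals that rest on the fragments behind each value and cover counting error only. The libraries held 8908950 (d12), 9449010 (d16), 23686500 (d24) and 12052000 (adult) fragments on genes, as recovered from the FPKM values. The numbers of fragments by which the values had been divided, recovered likewise, were 12521600, 12499100, 21967600 and 8915770 in that order. At d24 and in the adult they are lower than the fragments on genes, so the values had been rescaled between libraries. The summed FPKM of all genes grew from 283580 at d12 to 659202 in the adult. In whole testis, fewer cells of a type and less RNA per cell cannot be told apart.

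The testis label was checked against marker genes of 6 each for 6 cell types. The summed level of the pachytene spermatocyte markers was 61.9 FPKM at d12 and 5311 in the adult, and that of the elongating spermatid markers 13.1 and 26087. Sertoli markers summed to 180.6 and 63.0 FPKM and spermatogonial markers to 204.7 and 38.1. Leydig markers summed to 143.0, 86.8, 153.8 and 607.8 FPKM in order of age. All markers were above 0 at d12, while 2 of round spermatids and 1 of elongating spermatids were listed at 0 at d16, and 1 Sertoli marker in the adult.

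The regulatory subunit of calcineurin gave the largest change among the 8 genes. Both B genes encode a calcium-binding protein with EF-hand motifs. Ppp3r1 lies on chromosome 11 (GRCm38.p6, 17159298 to 17200380, plus strand) with 6 exons. Ppp3r2 lies on chromosome 4 (49678747 to 49681983, minus strand) with 2 exons, within an intron of the curated transcripts of Grin3a on the same strand. To show how close the 2 coding sequences are, their first 150 bases are given from RefSeq (GRCm38.p6), 5′ to 3′ on the coding strand from the start codon, with the 40 bases that differ in capitals.
Ppp3r1: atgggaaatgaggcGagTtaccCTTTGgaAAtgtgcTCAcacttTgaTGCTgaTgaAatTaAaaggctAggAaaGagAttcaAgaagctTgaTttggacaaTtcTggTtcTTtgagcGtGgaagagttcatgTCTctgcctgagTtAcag
Ppp3r2: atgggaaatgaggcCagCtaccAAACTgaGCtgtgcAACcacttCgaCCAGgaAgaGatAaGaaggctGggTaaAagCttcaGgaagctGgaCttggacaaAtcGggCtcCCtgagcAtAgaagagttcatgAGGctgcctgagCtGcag
Over the whole coding sequence, of 513 bases in Ppp3r1 and 540 in Ppp3r2, 73.1% of 513 aligned bases were identical. The longest run shared was 20 bases, shorter than the 50-base reads. None of the 50-base windows of Ppp3r2 transcripts occurred in a transcript of another gene, so its fragments can be told from those of Ppp3r1.

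The 250 bases before the annotated start also differed between the 2 genes. They are shown because the B genes went in opposite directions in the same libraries. Sequences are from RefSeq (GRCm38.p6), 5′ to 3′ on the strand of the gene, chr4:49681984-49682233 (minus) for Ppp3r2 and chr11:17159048-17159297 (plus) for Ppp3r1. Capitals mark matches, on either strand, to AACNGT (the core bound by MYB factors, N being any base) in Ppp3r2 and to GGGCGG (a GC box) in Ppp3r1.
Ppp3r2 upstream: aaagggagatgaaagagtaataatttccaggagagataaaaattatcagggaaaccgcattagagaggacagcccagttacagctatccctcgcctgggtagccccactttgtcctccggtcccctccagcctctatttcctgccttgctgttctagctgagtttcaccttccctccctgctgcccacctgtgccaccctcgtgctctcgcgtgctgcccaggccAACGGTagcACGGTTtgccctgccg
Ppp3r1 upstream: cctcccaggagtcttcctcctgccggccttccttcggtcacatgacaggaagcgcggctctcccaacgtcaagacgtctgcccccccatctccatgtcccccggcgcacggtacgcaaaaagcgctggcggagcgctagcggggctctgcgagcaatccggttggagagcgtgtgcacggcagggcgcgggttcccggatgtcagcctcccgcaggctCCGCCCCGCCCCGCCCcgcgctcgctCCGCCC
The window of Ppp3r2 held 9 CpG dinucleotides and 55.6% G and C, and that of Ppp3r1 held 29 and 70.8%. The median over 32851 promoters was 6 CpG. Ppp3r2 had 2 matches to AACNGT, which overlap no other motif searched and which 22.3% of all promoters hold, and no GC box. Ppp3r1 had 4 GC boxes, some of them sharing 1 base, and no match to the MYB core. The GC box was found in 32.7% of all promoters. Neither window held TGACGTCA (the full cAMP response element, in 1.55% of promoters), CCAAT (33.8%) or TATAAA (12.4%). A match is a string of letters and not a tested binding site. RefSeq promoters were at hand for 5 of the 8 genes, the others being Ppp1cc with 33 CpG, 6 GC boxes and 1 AACNGT, Ppp1cb with 24 CpG, 2 GC boxes and 1 AACNGT, and Ppp3cb with 10 CpG, 2 GC boxes and 2 AACNGT. Ppp3ca, Ppp3cc and Ppp1ca were not matched.

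Ppp3r2 had 0.0535 FPKM (0.00648 to 0.193) at d12 and 19.4 (18.0 to 20.8) at d16. It had 199.7 (196.3 to 203.2) at d24 and 243.0 (237.1 to 249.0) in the adult. The d12 value rests on 2 fragments and lies under the 0.0803 FPKM that 3 fragments are worth for this transcript. Among the 23983 genes its rank from the highest was 16961 at d12, then 3504 and 376, and 501 in the adult. At d24 it ranked higher than in the adult although its FPKM was lower. The adult level was 4542 times that at d12 (1257 to 37512). The step from d16 to d24 was 10.3-fold (9.56 to 11.1) and the one from d24 to the adult 1.22-fold (1.18 to 1.25). When all libraries are given one FPKM sum the last step points down, with a log2 difference of -0.20 against 0.28 as deposited. Most of the level seen in the adult was thus present by d24.

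Ppp3r1, the B subunit of other tissues, was at 29.5 FPKM (27.7 to 31.3) at d12 and 22.8 (21.3 to 24.5) at d16. It stood at 15.5 (14.6 to 16.5) at d24 and 15.8 (14.3 to 17.4) in the adult. The last value was 0.537 of that at d12 (0.477 to 0.603), short of a 2-fold difference as deposited. It passes 2-fold with one FPKM sum for all libraries, at -2.10 on the log2 scale, and with one upper quartile, at -1.55. The d24 and adult values did not differ beyond counting error as deposited, while with one FPKM sum the log2 difference between them was -0.45. Of its 50-base windows, 14.7% also occur in transcripts of Wdr92, a neighbour on chromosome 11 at 6.56 FPKM at d12 and 12.2 in the adult, so a part of its fragments may belong to that gene.

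The 2 genes crossed between d16 and d24. Ppp3r2 made up 0.181% of calcineurin B FPKM at d12 (0.0220 to 0.653), 45.9% at d16 (43.4 to 48.4), 92.8% at d24 (92.3 to 93.2) and 93.9% in the adult (93.3 to 94.5). The ratio of Ppp3r2 to Ppp3r1 was 0.848 at d16 (0.766 to 0.939), 12.9 at d24 (12.05 to 13.7) and 15.4 in the adult (13.9 to 17.04). Shares and ratios within a library do not depend on the scaling between libraries. Summed calcineurin B was 29.5, 42.2, 215.2 and 258.8 FPKM in the 4 libraries, 8.77 times the d12 level in the adult and 3.77 times with one FPKM sum for all libraries. Grin3a, the gene around Ppp3r2, stayed between 0.410 and 0.638 FPKM in the 4 libraries.

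**Figure D1:**
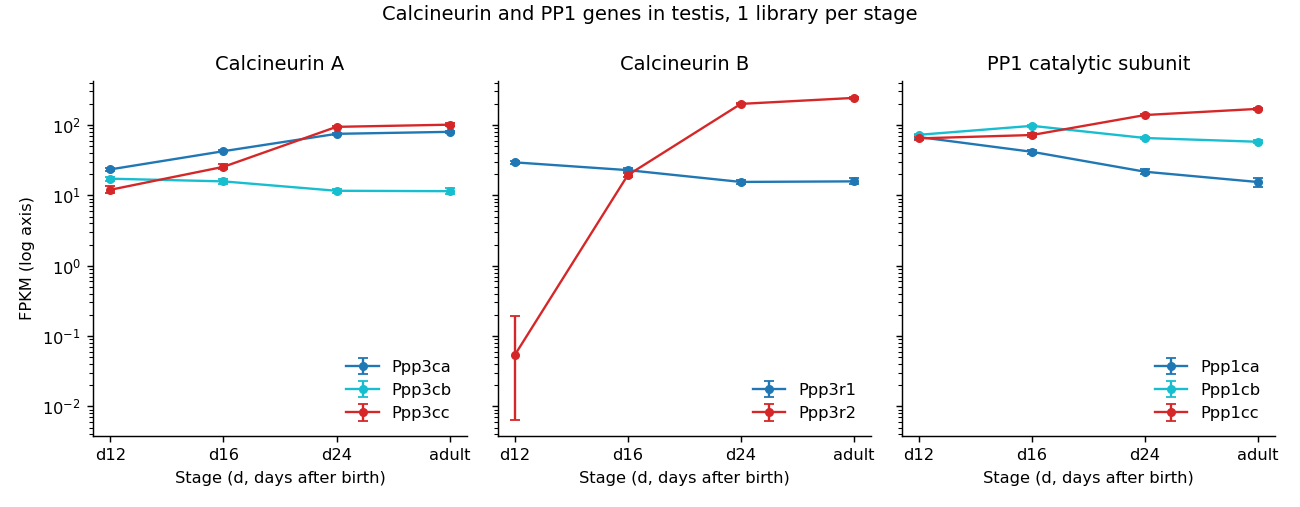
FPKM (log axis) of the 8 genes at each stage, with 1 library per stage, in 3 panels for calcineurin A, calcineurin B and the PP1 catalytic subunit. Bars are 95% intervals of counting error. Ppp3r2 climbs from 0.0535 to 243.0 FPKM while Ppp3r1 goes from 29.5 to 15.8, and Ppp1cc and Ppp1ca separate from a common level at d12.

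In the catalytic subunit of calcineurin, 2 of 3 genes were at least 2-fold higher in the adult than at d12, as were 35.7% of all genes. With one FPKM sum for all libraries Ppp3ca falls short of 2-fold and 1 of 3 is left. The share of all genes is given as deposited only. Ppp3cc, the testis isoform on chromosome 14 (70217864 to 70289536, minus strand), had 12.01 FPKM (10.7 to 13.5) at d12 and 25.5 (23.5 to 27.6) at d16. Its level was 94.2 (91.3 to 97.2) at d24 and 101.1 (96.4 to 106.0) in the adult. Unlike Ppp3r2 it was well above 0 at d12, where 286 fragments or more lay behind it. From d12 to the adult the ratio was 8.42 (7.43 to 9.58). Of the steps, d12 to d16 gave 2.12-fold (1.84 to 2.45) and d16 to d24 gave 3.70-fold (3.40 to 4.04). From d24 to the adult the ratio was 1.07 (1.01 to 1.14), and it turns below 1 with the same FPKM sum or the same upper quartile in every library.

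Ppp3ca, a catalytic isoform abundant in brain (chromosome 3, 136669714 to 136937727, plus strand), had 23.4 FPKM (22.2 to 24.7) at d12 and 42.5 (40.8 to 44.1) at d16. It reached 74.97 (73.3 to 76.6) at d24 and 80.0 (77.3 to 82.7) in the adult. It is a general isoform by name, yet its level went the way of the testis isoforms. The ratio of adult to d12 was 3.42 (3.21 to 3.64). The log2 difference was 1.77 as deposited and 0.55 with one FPKM sum for all libraries. It was higher at the same steps as Ppp3cc but with smaller ratios, 1.81 from d12 to d16 (1.70 to 1.94) and 1.77 from d16 to d24 (1.69 to 1.85).

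Ppp3cb, the other general isoform (chromosome 14, 20499364 to 20546573, minus strand), had 17.3 FPKM (16.1 to 18.5) at d12 and 15.8 (14.7 to 16.98) at d16. It had 11.6 (10.9 to 12.4) at d24 and 11.5 (10.4 to 12.7) in the adult. The adult level was 0.665 of that at d12 (0.588 to 0.750). As deposited, its d12 and d16 values, and its d24 and adult values, did not differ beyond counting error. With one FPKM sum for all libraries its log2 difference from d24 to the adult was -0.49. It overlaps 1810062O18Rik on the other strand (0.320 to 2.73 FPKM in the 4 libraries), as Ppp3cc does Gm26908 and Gm33790, which have no row in the table. The profile of Ppp3cb lay closest to that of Ppp3r1 among the other 7 genes, with a distance of 0.27 between the centred log2 profiles of the 4 libraries, although 822 of the 13901 genes tested were closer still.

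Ppp3cc made up 22.8% of calcineurin A FPKM at d12 (20.7 to 25.04), 30.4% at d16 (28.6 to 32.3), 52.1% at d24 (51.2 to 53.0) and 52.5% in the adult (51.1 to 53.9). Ppp3ca held 44.4%, 50.7%, 41.5% and 41.5%, and Ppp3cb 32.8%, 18.9%, 6.43% and 5.96%. The switch in the A subunit was thus partial, with Ppp3ca still next to Ppp3cc in the adult, where the ratio of Ppp3cc to Ppp3ca was 1.26 (1.19 to 1.34) after 0.513 at d12 (0.450 to 0.583). In numbers of fragments, which favour long transcripts, the share of Ppp3cc was at least 11.3% at d12 and 30.9% in the adult. These are minima, because the shortest transcript of Ppp3cc was used, which gives the fewest fragments. By this count Ppp3ca kept more fragments, with a longer transcript, although its adult FPKM was the lower one. Summed calcineurin A was 52.7, 83.7, 180.8 and 192.6 FPKM, 3.66 times the d12 level in the adult and 1.57 times with one FPKM sum for all libraries. The ratio of A to B transcripts was 1.78, 1.98, 0.840 and 0.744 in the 4 libraries, so that B transcripts passed A transcripts between d16 and d24.

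**Figure D2:**
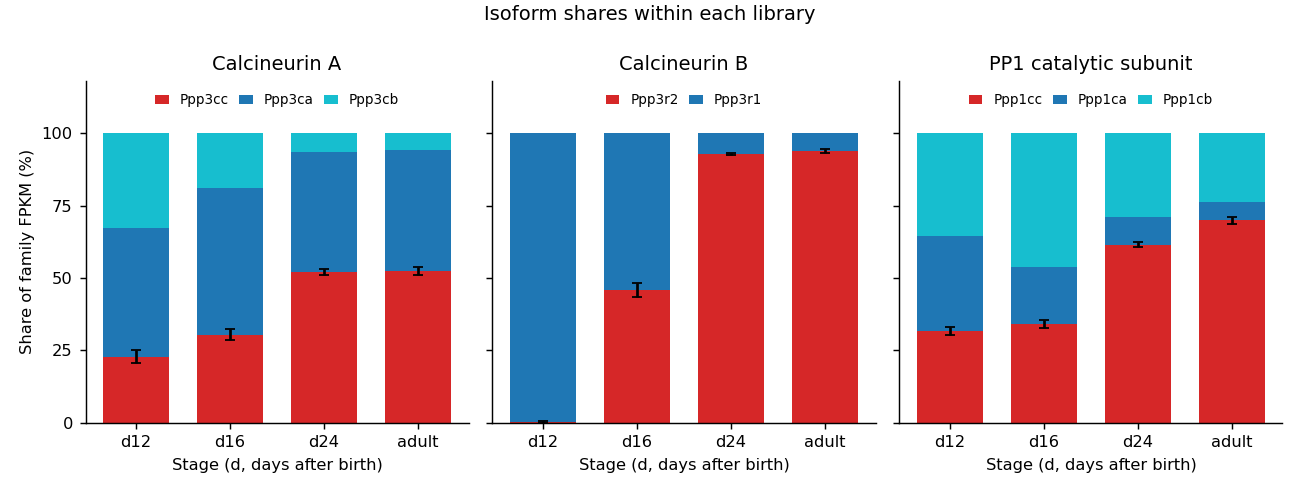
Share of each isoform in the summed FPKM of its family (%), by stage, for calcineurin A, calcineurin B and the PP1 catalytic subunit. Black bars are 95% intervals of counting error for the testis isoform, in red, which makes up 52.5%, 93.9% and 69.9% in the adult.

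The PP1 catalytic subunits began at d12 with 3 almost equal genes. Ppp1cc (chromosome 5, 122154967 to 122175273, plus strand) had 64.6 FPKM (61.2 to 68.1) at d12 and 72.1 (68.6 to 75.8) at d16. It had 138.7 (135.0 to 142.5) at d24 and 169.8 (163.3 to 176.5) in the adult. It was among the 772 highest genes in all 4 libraries. From d12 to the adult the ratio was 2.63 (2.46 to 2.81). It is past 2-fold only as deposited or by the median ratio, with a log2 difference of 1.39 as deposited, 0.18 with one FPKM sum and 0.73 with one upper quartile for all libraries. The step from d16 to d24 was the largest, at 1.92-fold (1.82 to 2.04). The splice forms of Ppp1cc stand under 1 symbol, so the values do not separate the form of testis from the other.

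The level of Ppp1cc is uncertain because of near copies. Of the 50-base windows of its transcripts, 58.5% also occur in another gene, most of them in Ppp1ccb on chromosome 7 and fewer in the pseudogenes Gm9231, Gm14122 and Gm9315. None of these 4 symbols has a row in the table, so fragments placed there by the mapping, which kept 1 alignment per pair, would not appear under Ppp1cc. No 50-base window of the other 2 PP1 genes, or of Ppp3ca, Ppp3cb and Ppp3cc, is shared with a transcript of another gene.

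Ppp1ca (chromosome 19, 4192174 to 4195419, plus strand) had 67.4 FPKM (63.6 to 71.4) at d12 and 41.6 (38.6 to 44.8) at d16. It was down to 21.7 (20.04 to 23.4) at d24 and 15.5 (13.3 to 17.8) in the adult. As deposited it was the only one of the 8 at least 2-fold lower in the adult, 0.229 of the d12 level (0.196 to 0.268). With one FPKM sum Ppp3cb, Ppp3r1 and Ppp1cb were as well, and with one upper quartile Ppp3cb and Ppp3r1. Ppp1ca was lower at each of the 3 steps beyond counting error. Its last exon overlaps that of Rad9a on the other strand, which was at 1.29 to 2.76 FPKM in the 4 libraries. The library kit keeps the strand and the mapping used it.

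Ppp1cb (chromosome 5, 32458848 to 32493713, plus strand), the isoform of the myosin phosphatase, had 72.6 FPKM (70.3 to 75.02) at d12 and 97.4 (94.6 to 100.1) at d16. It had 65.4 (63.7 to 67.1) at d24 and 57.8 (55.3 to 60.3) in the adult. It was the only one of the 8 with its highest value at d16, 1.34 times that at d12 (1.28 to 1.40). The adult level was 0.796 of that at d12 (0.754 to 0.840). At d12 the intervals of Ppp1ca and Ppp1cc overlap, as do those of Ppp1cb and Ppp1ca.

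Ppp1cc made up 31.6% of PP1 FPKM at d12 (30.2 to 32.9), 34.2% at d16 (32.9 to 35.5), 61.4% at d24 (60.5 to 62.4) and 69.9% in the adult (68.6 to 71.1). The small step from d12 to d16 depends on the measure, since by fragments the share went from 22.4% to 21.6%, and the ratio of Ppp1cc to Ppp1cb from 0.889 (0.835 to 0.946) to 0.741 (0.699 to 0.785). The shares by fragments are minima, because the shortest transcript of Ppp1cc was used. From d16 on all measures point up, with a ratio to Ppp1cb of 2.12 at d24 (2.04 to 2.204) and 2.94 in the adult (2.77 to 3.11). Ppp1ca held 33.0%, 19.7%, 9.60% and 6.36%, and Ppp1cb 35.5%, 46.1%, 29.0% and 23.8%. Summed PP1 was 204.6, 211.1, 225.8 and 243.1 FPKM, 1.19 times the d12 level in the adult. Whether this sum was level depends on the scaling, since with one FPKM sum for all libraries it was 0.511 of the d12 level and with one upper quartile 0.752. The ratio of PP1 to calcineurin A transcripts was 3.88 at d12, 2.52 at d16 and close to the adult value of 1.26 at d24, with 1.25.

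Across the 8 genes, the order at d12 was Ppp1cb, Ppp1ca, Ppp1cc, Ppp3r1, Ppp3ca, Ppp3cb, Ppp3cc and Ppp3r2. In the adult it was Ppp3r2, Ppp1cc, Ppp3cc, Ppp3ca, Ppp1cb, Ppp3r1, Ppp1ca and Ppp3cb. The 3 testis isoforms took the first 3 places in the adult. The intervals of neighbours in these orders overlapped for the PP1 genes at d12 and for Ppp3r1 and Ppp1ca in the adult, and for no others.

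Changes were set against the 13901 genes whose mean over the libraries was 1 FPKM or more, which include all 8 genes, as differences of log2(FPKM + 0.1). This scale understates the change of a gene as low as Ppp3r2 at d12. From d12 to d16, 2 of the 8 were at least 2-fold higher (Ppp3cc and Ppp3r2), against 12.6% of all genes, and 0 of 8 lower, against 3.67%. From d16 to d24, the same 2 were higher, against 27.5%, and 0 lower, against 8.45%. From d24 to the adult, 0 of 8 passed 2-fold in either direction, against 11.4% higher and 2.2% lower. From d12 to the adult, 4 of 8 were higher (Ppp3ca, Ppp3cc, Ppp3r2 and Ppp1cc), against 35.7%, and 1 lower (Ppp1ca), against 23.1%. No test of these counts was made, and with so few genes they are a description only.

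Single genes lay at different places in that distribution. The d12 to adult difference of Ppp3r2, 10.63 on the log2 scale, was above that of 99.6% of genes. That of Ppp3cc, 3.06, was above 81.9%, that of Ppp3ca, 1.77, above 73.3%, and that of Ppp1cc, 1.39, above 69.6%. At the other end Ppp1ca, at -2.12, was above 4.90% of genes. Ppp3r1 at -0.89, Ppp3cb at -0.59 and Ppp1cb at -0.33 were above 25.7%, 32.6% and 38.5%. The median of the 8 was 0.53 and that of all genes 0.20.

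**Figure D3:**
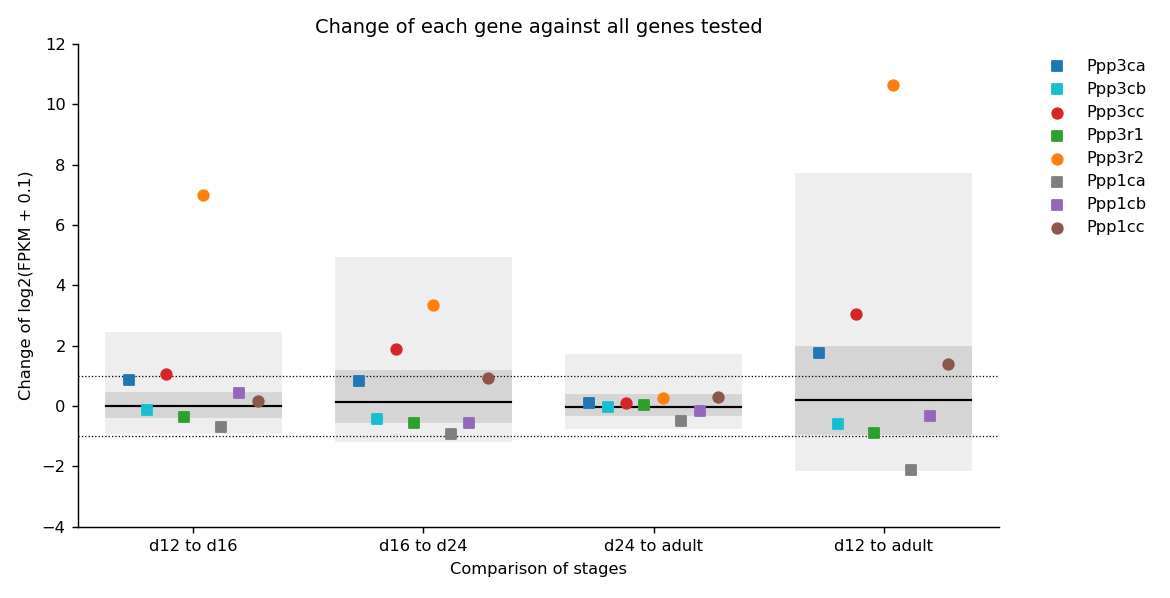
Difference of log2(FPKM + 0.1) for each of the 8 genes (circles, testis isoforms; squares, general isoforms) in 4 comparisons of stages. Light and dark boxes span the 5th to 95th and 25th to 75th percentiles of the 13901 genes tested, the black line is their median, and dotted lines mark 2-fold. Ppp3r2 lies above the light box from d12 to d16 and from d12 to the adult. The d24 to adult points of Ppp3ca, Ppp3cc, Ppp3r1, Ppp3r2 and Ppp1cc turn negative with the same FPKM sum in every library.

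The scaling between libraries moves all genes together. With the same FPKM sum in every library the median of all genes from d12 to the adult was -0.996, and with the same upper quartile -0.45. Division by the median ratio left it at 0.21, against 0.20 as deposited, so that scaling is hardly a separate check. The members then split into 2 higher and 4 lower, or 3 higher and 3 lower, instead of 4 and 1. From d16 to d24 they split into 2 higher and 4 lower, or 2 and 1, instead of 2 and 0. Relative to the median of all genes the differences hardly moved. Over all 4 scalings Ppp3cc was 2.85 to 2.86 above it, Ppp3ca 1.55 to 1.57, Ppp1cc 1.17 to 1.19 and Ppp3r2 10.41 to 10.77. Below the median, Ppp1ca was at -2.33 to -2.32, Ppp3r1 at -1.11 to -1.09, Ppp3cb at -0.80 to -0.79 and Ppp1cb at -0.55 to -0.53.

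The timing of the 4 genes that were higher in the adult was set beside the markers. At d16 Ppp3ca stood at 53.1% of its adult level, Ppp1cc at 42.5%, Ppp3cc at 25.2% and Ppp3r2 at 7.97%. The 6 pachytene spermatocyte markers had a median of 21.3% at d16 (1.23% to 57.0%), and the 6 round spermatid markers one of 0.949% (0% to 16.1%). At d24 the 4 genes were at 93.7%, 81.7%, 93.1% and 82.2%. Pachytene markers then had a median of 88.9% (40.4% to 122.5%), round spermatid markers 47.5% (33.7% to 108.3%) and elongating spermatid markers 12.6% (5.72% to 23.4%). All 4 genes lay inside the range of the pachytene markers at d16 and d24, and above that of the elongating spermatid markers. The pachytene range at d16 is wide. Its lowest markers were at 1.23% and 2.95% and the next at 14.1%, so Ppp3r2 was inside only through the lowest. The highest was at 57.0% and the next at 34.6%, so Ppp3ca and Ppp1cc were inside only through the highest. The share of all genes inside these ranges is not given. Ppp3r2 was the only one of the 4 that also lay inside the round spermatid range at d16, and at d24 all 4 did. At d16 the highest round spermatid markers were at 16.1% and 8.35%, and the next was at 1.46%, below Ppp3r2. At d24 the 4 genes were inside only through the highest marker, at 108.3%. The next was at 78.2%, below all 4.

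At d12 Ppp3r2 stood at 0.0220% of its adult level, where the lowest marker of the 3 meiotic and haploid lists was at 0.0235%. With 2 fragments behind it, its place among the lowest markers is not fixed. The other 3 were at 29.3% (Ppp3ca), 11.9% (Ppp3cc) and 38.0% (Ppp1cc), above all of these markers, the highest being at 4.07%. The elongating spermatid markers summed to 13.1 FPKM at d12 but 4.33 at d16, and their part in the 2 fragments of Ppp3r2 at d12 was not tested.

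Among the genes with lower adult levels, Ppp1ca stood at 435.9% of its adult level at d12, Ppp3r1 at 186.3%, Ppp3cb at 150.5% and Ppp1cb at 125.7%. The 5 Sertoli markers above 0 in the adult then had a median of 318.7% (121.5% to 570.5%) and spermatogonial markers one of 614.2% (49.7% to 1709%). The Sertoli markers summed to 180.6, 134.8, 83.0 and 63.0 FPKM in order of age and the spermatogonial markers to 204.7, 121.8, 55.0 and 38.1. Ppp1ca was lower at each step, as these sums were, while Ppp1cb was higher at d16 than at d12. The part of these cells in the levels of the 4 genes was not tested.

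**Figure D4:**
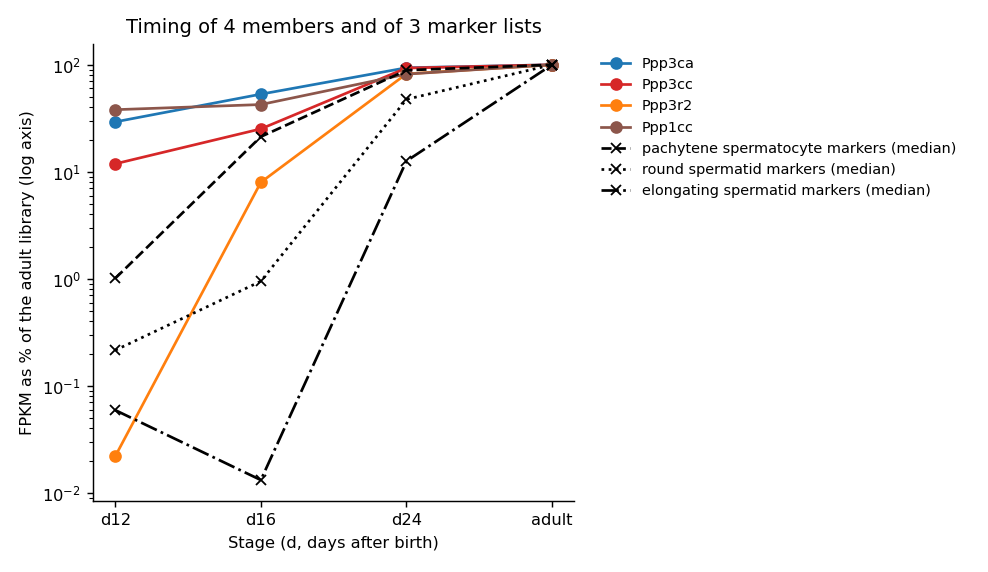
FPKM at each stage as a percentage of the adult library (log axis), for Ppp3ca, Ppp3cc, Ppp3r2 and Ppp1cc and for the medians of 3 lists of 6 marker genes. At d16 the 4 genes lie between 7.97% and 53.1% and the pachytene marker median is 21.3%, while the round and elongating spermatid medians are under 1%.

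Partners of calcineurin were followed in a list of 18 genes, of which 15 passed the 1 FPKM mean. From d12 to the adult 4 were at least 2-fold higher, 4 lower and 7 neither, beside 35.7% higher and 23.1% lower among all genes, with a median of -0.39 against 0.20 for all genes. The split was 2 higher and 9 lower with the same FPKM sum, and 2 and 8 with the same upper quartile. At these scalings the median of all genes was itself lower, at -0.996 and -0.45. The shares of all genes are given as deposited only, so these splits cannot be set against them. Spata33, which anchors sperm calcineurin to mitochondria, was at 13.6, 172.8, 819.6 and 1548 FPKM in order of age, 114.1 times the d12 level. Calm3 and Calm2, also higher, encode calmodulin, the calcium sensor that activates calcineurin. Calm3 was at 105.9, 207.6, 451.9 and 523.0 FPKM, and Calm2 at 650.5, 1549, 1541 and 1629. By d16 Calm2 stood at 95.1% of its adult level and Calm3 at 39.7%.

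Rcan1, which inhibits calcineurin, differed little, at 10.6 FPKM at d12 and 14.4 in the adult. The other genes of that name were lower in the adult, Rcan2 at 3.02 and 1.86 FPKM and Rcan3 at 4.23 and 0.775. At the lower end, Tesc was at 3.22, 1.27, 0.435 and 0.119 FPKM and Chp2 at 40.1, 27.4, 14.7 and 7.66. Both encode proteins related to calcineurin B that bind sodium/proton exchangers. Akap5, an anchor for calcineurin and protein kinase A, went from 5.83 to 3.78, 1.11 and 0.939 FPKM. Tesc, Chp2 and Akap5 were already lower at d16 than at d12.

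Regulatory subunits of PP1 were taken as all 44 symbols beginning with Ppp1r and a digit, 33 of which passed the 1 FPKM mean. From d12 to the adult 16 were at least 2-fold higher, 4 lower and 13 neither, beside the same 35.7% and 23.1% of all genes, with a median of 0.93. The 16 include Ppp1r2-ps9, Ppp1r2-ps7 and Ppp1r2-ps3, which are copies of Ppp1r2, so they are not all separate subunits. The split was 11 higher and 13 lower with the same FPKM sum, and 12 and 11 with the same upper quartile. The surplus of higher over lower genes thus depends on the scaling. The median of all genes moved too, to -0.996 and -0.45. The shares of all genes are given as deposited only, so these splits cannot be set against them. By step, 8 of the 33 were higher from d12 to d16 (12.6% of all genes), 13 from d16 to d24 (27.5%) and 4 from d24 to the adult (11.4%). At these steps 0 of the 33 were lower, against 3.67%, 8.45% and 2.2% of all genes. The counts by step are given as deposited only. With the same FPKM sum the median of all genes from d16 to d24 was -0.48 instead of 0.13, so the 0 may not hold under other scalings.

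The largest differences in this list were in genes with little RNA at d12. Ppp1r36 was at 1.76, 35.0, 191.0 and 311.0 FPKM. Ppp1r42, a leucine-rich repeat protein of testis, was at 0.392, 9.78, 78.8 and 165.7 FPKM, and Ppp1r32 at 0.548, 1.81, 62.4 and 113.5. Ppp1r2-ps9 and Ppp1r2-ps7, copies of the gene for an inhibitor of PP1, were listed at 0 at d12 and d16, and then at 21.9 and 63.1 FPKM and at 3.60 and 21.1. Copies of a gene may share reads with each other and with Ppp1r2, so their values are uncertain. These 5 genes differ in timing, with Ppp1r36 and Ppp1r42 at 11.3% and 5.90% of their adult level at d16, and Ppp1r32 at 1.60%.

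Lower in the adult were Ppp1r16b at 4.76 FPKM at d12 and 1.53 in the adult, Ppp1r9a (neurabin, a binder of actin) at 28.2 and 11.4, and Ppp1r15a, which directs PP1 to a translation factor under stress, at 12.6 and 5.34. Ppp1r11 and Ppp1r2 encode inhibitors of PP1 and were picked after their values were seen. Ppp1r11 was at 9.65, 27.9, 138.3 and 253.9 FPKM, and Ppp1r2 at 18.7, 28.1, 48.1 and 59.7.

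Other catalytic subunits of the same phosphatase family served as a comparison, 7 genes with 6 above the 1 FPKM mean. Ppef1, a phosphatase with EF-hands, was at 0.225, 0.709, 7.41 and 28.5 FPKM, and Ppp5c at 8.22, 17.9, 29.3 and 17.2. These 2 of 6 were at least 2-fold higher in the adult, near the 35.7% of all genes, Ppp5c just past the line and short of it when the FPKM sum or upper quartile was made equal or the pseudocount was 1 FPKM. Ppp2ca was lower (1 of 6, with 23.1% of all genes), at 77.7, 69.1, 47.5 and 36.2 FPKM, while its close relative Ppp2cb was at 28.5, 23.96, 55.6 and 53.4, so that the 2 catalytic subunits of PP2A changed places between d16 and d24. Ppp4c was at 22.8 FPKM at d12 and 35.7 in the adult, and Ppp6c at 31.6 and 39.0. Ppef2 stayed at or under 0.106 FPKM.

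**Figure D5:**
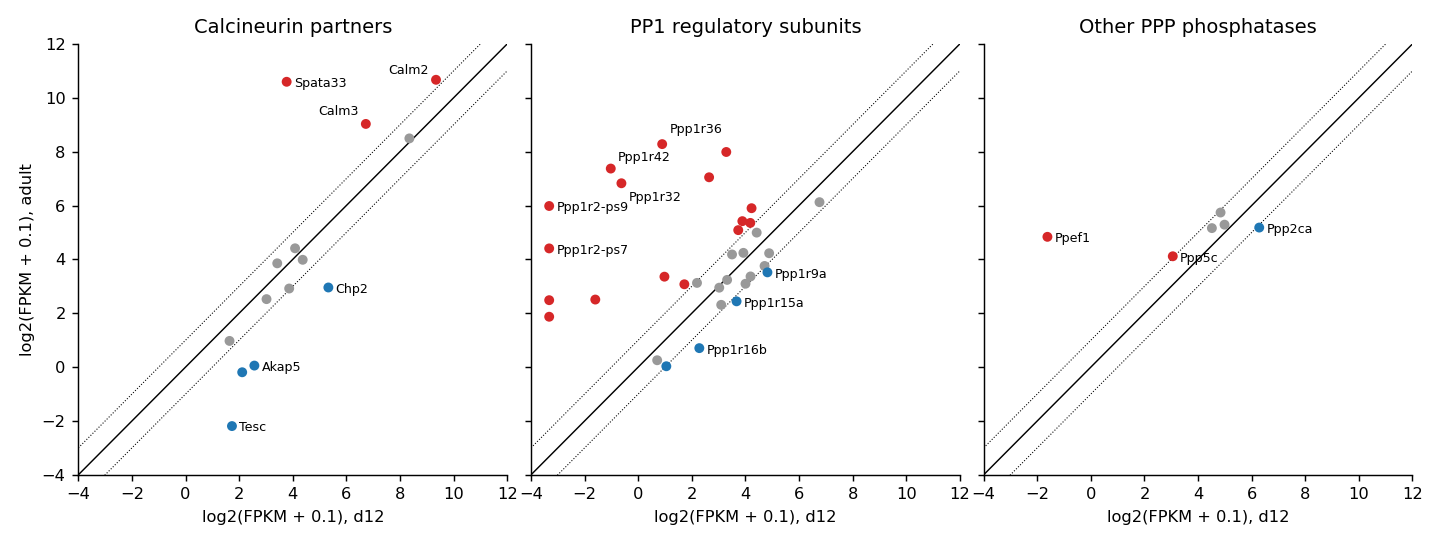
Level at d12 against level in the adult, both as log2(FPKM + 0.1), for genes above a mean of 1 FPKM among calcineurin partners (1 not shown), PP1 regulatory subunits (33) and other PPP phosphatases (6). The solid line marks equal levels and dotted lines 2-fold. Red and blue genes are at least 2-fold higher or lower in the adult as deposited, a split of 16 to 4 among PP1 regulatory subunits that becomes 11 to 13 with the same FPKM sum in every library. The median of all genes moves with that scaling too, from 0.20 to -0.996.

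The genes most like each testis isoform were sought among the 13901 by the distance between centred log2(FPKM + 0.1) profiles over the 4 libraries. Nearest to Ppp3cc were 4930581F22Rik, Stk39, Kif3b, Tctn2 and Ercc4, at distances of 0.04 to 0.07, followed by 1110006O24Rik, Zfp35, Ccdc130, Nxpe3 and Zfp646. Stk39, a kinase, was at 28.2, 57.7, 214.4 and 233.6 FPKM, and Kif3b, a motor of intraflagellar transport, at 11.9, 24.6, 90.8 and 95.7.

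Nearest to Ppp3r2 were Pebp4, Gm6460, Spink2, Fbp1 and Tcp10a, at distances of 0.22 to 0.43, followed by Adam5, Pgam2, Speer2, Adam32 and Cmtm2a. Pebp4 was at 0.146, 34.5, 347.5 and 480.7 FPKM, and Spink2, a protease inhibitor of the acrosome, at 0.682, 86.0, 778.3 and 914.3. Few genes had so steep a profile, and the distances were correspondingly wider than for Ppp3cc.

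Nearest to Ppp1cc were Fkbp8, 1110065P20Rik, Psenen, Atp9a and Tmem88, at distances of 0.04 to 0.07, followed by Ap2s1, Ppp1r10, Per1, Eif4e2 and Trmt10b. Ppp1r10, at 13.2, 15.2, 30.1 and 33.9 FPKM, is itself a regulatory subunit that holds PP1 in the nucleus. With 4 libraries a profile has few points, and the lists depended on the measure. With a pseudocount of 1 FPKM 4, 1 and 4 of the 10 genes were shared with these lists for Ppp3cc, Ppp3r2 and Ppp1cc, and by Pearson correlation 1, 1 and 0. Among the 8 genes, Ppp3ca was nearest to Ppp1cc, at a distance of 0.53. Seen from Ppp3ca, 822 genes lay closer to it than Ppp1cc did.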

How the data were processed

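RNA-seq of mouse testis at d12, d16, d24 and adult was analysed, with 1 strand-specific library per stage. The authors deposited FPKM values per RefSeq gene, made from pairs of 50-base reads. TopHat2 2.1.0, running bowtie 1.1.2, placed the pairs on GRCm38/mm10 with RefSeq genes supplied and 1 alignment kept per pair. Cuffdiff (Cufflinks 2.2.1) then corrected for multi-reads and bias but not for effective length. The scaling between libraries is not given in the sources used here, but the deposited values lay close to those divided by the median ratio. Reads shared with a near copy are placed by these steps and can move a gene's value.

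Shares, ratios and differences of log2(FPKM + 0.1) were computed in python 3.11.15 (pandas 2.3.3, numpy 2.4.6, scipy 1.17.1, with matplotlib 3.10.9 for figures). A gene was counted as higher or lower at a 2-fold difference, among genes that averaged 1 FPKM or more. With 1 library per stage no test was made.

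Fragments were recovered by dividing each value by that of 1 fragment, set from genes with 1 curated RefSeq transcript. Among values of up to 20 fragments, 91.7% to 92.4% were whole within 0.05, a recovery checked on simulated data. For genes with several transcripts the mean length was used where lengths differed by a factor of at most 1.1, and otherwise the shortest (Ppp3cc and Ppp1cc), which gives the fewest fragments and the widest interval. Intervals of ratios and of the Ppp3r2 share are exact 95% intervals, those of the Ppp3cc and Ppp1cc shares a logit approximation. They cover counting error only, and reads without molecular identifiers are not independent molecules.

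Positions and exons are those of RefSeq on GRCm38.p6, and 50-base windows were compared with the mouse GENCODE transcripts. Motifs were searched on both strands of the 250 bases before the start.

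The 8 genes and all lists were chosen with earlier results of these data known. The genes named are the 8, the 5 highest and 3 lowest of each list by the d12 to adult difference, all other PPP phosphatases, the 10 nearest profiles of each testis isoform and overlapping genes. Ppp1r11, Ppp1r2, Ppp1r2-ps3, Rcan2, Rcan3 and Wdr92, and the copies of Ppp1cc, are named beside the rule. Of the calcineurin partners, 1 gene so chosen is counted but not reported here. Alternatives were other scalings, a pseudocount of 1 FPKM, a fold of 1.5, no filter, fragments in place of FPKM, 1 general isoform only, and correlation for profiles.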

Additional observations from a re-analysis of the deposited data

How the results depend on the processing

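Of 137 alternatives for 37 values and counts, 75 moved the result by less than its interval or by less than 1.5 times, 62 moved it further, and 0 reversed a called direction. Shares and counts have no direction to reverse, and the log2 differences from d24 to the adult were not among the 37. The absence of reversals therefore covers only the d12 to adult differences of the members. The share of Ppp3cc in calcineurin A by fragments was 11.3%, 15.4%, 30.6% and 30.9% from d12 to the adult, and 33.9%, 37.5%, 55.7% and 55.8% against Ppp3ca alone. The share of Ppp1cc in PP1 was 22.4%, 21.6%, 44.8% and 53.4% by fragments, and 47.1%, 42.6%, 68.0% and 74.6% against Ppp1cb alone. Fragments weight long transcripts more, and leaving out an isoform shrinks the denominator. The shares of Ppp3cc and Ppp1cc by fragments rest on their shortest transcripts and are minima. With the same FPKM sum in every library, members at least 2-fold higher numbered 1 from d12 to d16 and 2 from d12 to the adult, and lower 4 from d16 to d24 and 4 from d12 to the adult. With the same upper quartile 1 was higher from d12 to d16, and 1 and 3 were lower. At 1.5-fold, 1 was lower from d12 to d16, 4 higher and 1 lower from d16 to d24, and 3 lower from d12 to the adult. Among calcineurin partners the same sum gave 2 higher and 9 lower and the upper quartile 2 and 8. Lower PP1 regulatory subunits numbered 13 (same sum), 11 (upper quartile), 10 (1.5-fold) and 7 (no filter). Higher other PPP phosphatases numbered 1 (same sum), 1 (upper quartile), 1 (pseudocount of 1 FPKM) and 4 (1.5-fold). The d24 to adult differences of 5 members that change sign with the same sum passed 2-fold under no scaling. These scalings shift all genes of a library together, and which scaling is nearer to RNA per cell was not tested. Shares of all genes past 2-fold are given as deposited only, so the rescaled counts have no such share beside them. No paired analysis was possible because each stage has 1 library. At d12, 3 fragments are worth 0.0803 FPKM for Ppp3r2, which limits its d12 ratio.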
